A study of Mus musculus with 9 samples.

Results

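The interferon regulatory factor (IRF) genes *Irf1*, *Irf2*, *Irf3*, *Irf4*, *Irf5*, *Irf7*, *Irf8* and *Irf9* were followed in RNA of the mouse iris after corneal alkali injury. They were chosen by gene symbol, and all 8 were found among the 18349 genes listed. Iris RNA was sequenced in 9 libraries, 3 in each of 3 groups, and every library pooled 3 irises of identical genotype. Mice of 6 weeks were injured by sodium hydroxide (0.5 μL at 1 M), held on the cornea over 60 seconds. In the Sham group, PBS took its place. The Sham and one injured group were *VEGFR3fl/fl* mice, which carry floxed alleles of the gene for VEGFR3, the receptor through which VEGFC drives the growth of lymphatic vessels. The other injured group was *VEGFR3iLECko*, littermates that also carry Prox1-CreERT2, a tamoxifen-inducible Cre expressed from *Prox1*, which is active in lymphatic endothelium and in some other cells. Tamoxifen was given to all groups at 80 mg/kg from day 13 to day 17, so that its own effect cannot be told apart from the background common to all groups. Irises were collected at 10 weeks of age. For replicates 2 and 3 of the *VEGFR3iLECko* group, the genotype tag names another VEGFR number, whereas titles and descriptions give VEGFR3, which was followed here.

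IRF proteins are transcription factors that share a DNA-binding domain which recognizes GAAA repeats in the promoters of interferons and of genes induced by interferons. IRF3, IRF5 and IRF7 act below nucleic acid sensors and Toll-like receptors and switch on interferon and cytokine genes. IRF9 is the DNA-binding part of ISGF3, the complex that carries the type I interferon signal to its target genes, and IRF1 and IRF2 act as activator and antagonist on shared sites. IRF8 and IRF4 are factors of the blood lineage that guide macrophages, dendritic cells and B cells and that bind DNA with partners such as PU.1 and BATF.

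*Flt4* (NCBI Gene ID 14257), which encodes VEGFR3, had 282, 237 and 265 counts in Sham, 277, 353 and 400 in injured *VEGFR3fl/fl* and 478, 370 and 476 in injured *VEGFR3iLECko* libraries. It was therefore not lower in the group labelled as its deletion. The log2 fold change between the injured groups was 0.33 (SE 0.15, edgeR adjusted p = 0.20), and the groups overlapped. Against Sham, *Flt4* was an upregulated gene in injured *VEGFR3iLECko* irises, with a log2 fold change of 0.80 (SE 0.15, edgeR adjusted p = 0.00161). In injured *VEGFR3fl/fl* irises it was 0.46 (SE 0.15, edgeR adjusted p = 0.0234), under 1.5-fold. These counts cover the whole gene and all cells of the iris, so they need not fall where part of the gene is removed in lymphatic endothelium, which was not tested. The *VEGFR3iLECko* group is named as labelled. Total counts per library lay between 16617187 and 18306359. Summed over Y-linked genes, the level was 51.1 to 167 CPM (read counts scaled to the library's total, on the TMM scale) in Sham, 151, 136 and 0.804 CPM in injured *VEGFR3fl/fl* replicates 1 to 3 and 0.736 to 1.11 CPM in injured *VEGFR3iLECko* libraries. The sex of the pooled mice thus differed between the injured groups, except for injured *VEGFR3fl/fl* replicate 3, and values with a covariate for it, chosen after the data were seen, are given beside the calls it changes.

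The promoters that held a match to a known interferon motif are shown first, since IRF genes are themselves targets of interferon signaling. RefSeq windows of 300 bases around the start of a gene, in build GRCm38.p6, were found for all 8 genes. They were searched on both strands for the core of the interferon-stimulated response element, GAAANNGAA, which IRF proteins bind, for the core of the gamma-activated site, TTCNNNGAA, which serves interferon gamma signaling, and for a kappa B core, GGGANTTTC. Only these exact patterns were searched, so other forms of such sites, also of kappa B sites, would stay in lower case. Windows of 3 of the 8 genes held a match, and matches are in capitals below. They lie at chr11:53769764-53770063 for *Irf1*, chr8:46739495-46739794 for *Irf2* and chr8:120736108-120736407 for *Irf8*, all on the plus strand.
Irf1: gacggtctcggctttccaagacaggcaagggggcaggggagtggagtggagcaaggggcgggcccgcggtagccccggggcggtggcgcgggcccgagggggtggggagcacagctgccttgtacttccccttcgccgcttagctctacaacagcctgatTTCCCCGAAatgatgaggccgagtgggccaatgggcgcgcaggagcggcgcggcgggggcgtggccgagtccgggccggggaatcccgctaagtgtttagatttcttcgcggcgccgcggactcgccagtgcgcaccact
Irf2: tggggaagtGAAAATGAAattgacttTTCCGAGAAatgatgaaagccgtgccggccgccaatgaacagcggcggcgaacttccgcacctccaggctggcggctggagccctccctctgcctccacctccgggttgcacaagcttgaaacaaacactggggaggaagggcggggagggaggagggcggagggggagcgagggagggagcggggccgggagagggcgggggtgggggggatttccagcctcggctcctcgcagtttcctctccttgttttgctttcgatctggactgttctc
Irf8: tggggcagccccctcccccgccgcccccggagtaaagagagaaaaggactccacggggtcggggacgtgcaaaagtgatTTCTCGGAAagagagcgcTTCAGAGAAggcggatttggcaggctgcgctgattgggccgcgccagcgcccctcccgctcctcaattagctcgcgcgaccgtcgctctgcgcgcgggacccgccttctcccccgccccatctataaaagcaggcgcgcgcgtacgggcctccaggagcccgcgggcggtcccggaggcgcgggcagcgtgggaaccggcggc
The *Irf1* window held 1 gamma-activated site core, TTCCCCGAA, from -90 to -82 relative to the start. The *Irf2* window held GAAAATGAA from -241 to -233 and TTCCGAGAA from -224 to -216. The *Irf8* window held 2 gamma-activated site cores, TTCTCGGAA from -171 to -163 and TTCAGAGAA from -153 to -145. No match lay in the windows of *Irf3*, *Irf4*, *Irf5*, *Irf7* and *Irf9*. The *Irf9* windows begin at 55603735 and 55604329 on chromosome 14, past the GENCODE start of the gene at 55603571. Bases before that start were thus not searched for *Irf9*. Among all 32851 windows, 8.56% held the first core, 8.30% the second and 1.11% the third, and the matches are a description of letters and not of binding.

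Alkali injury was accompanied by higher RNA of 5 of the 8 genes. *Irf8* and *Irf5* rose most, followed by *Irf7*, *Irf1* and *Irf2*, whereas *Irf3*, *Irf4* and *Irf9* did not pass the test. DEGs were genes that differed by over 1.5-fold with an edgeR adjusted p under 0.05, and 22.1% of the 15010 genes tested were upregulated and 17.5% downregulated DEGs after injury. The median log2 fold change was 0.90 over the 8 genes and 0.010 over all genes tested. Between the injured groups all 8 genes had a lower mean in *VEGFR3iLECko*, and *Irf8* and *Irf5* were downregulated DEGs. Of all genes tested, 0.466% were downregulated and 0.573% upregulated DEGs in that comparison. At an unadjusted p under 0.05, edgeR found 6 of the 8 genes lower and 0 higher, where 12.5% of all genes were lower and 12.0% higher. DESeq2 called *Irf8*, *Irf5* and *Irf7*, where 4.17% of all genes were DEGs of either direction in this comparison. Against Sham, injured *VEGFR3iLECko* irises had 3 of the 8 genes as upregulated DEGs, *Irf1*, *Irf5* and *Irf8*, where 19.7% of all genes were upregulated and 15.0% downregulated. The comparisons share groups and are not independent of each other. Nothing in the sources shows which pools came from separate litters or days, and the p-values measure the spread between these pools.

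**Figure D1:**
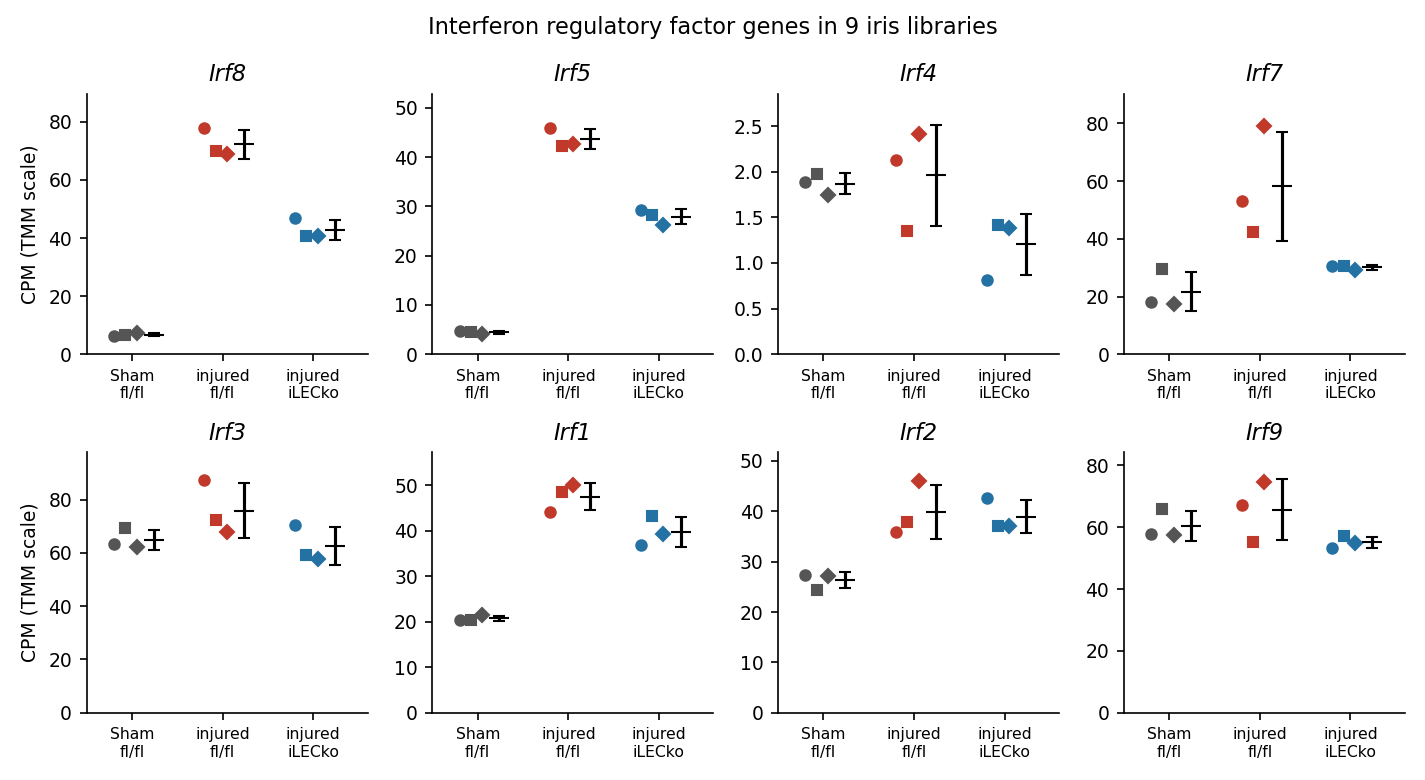
Normalized expression (CPM on the TMM scale, linear axes from 0) of each IRF gene in the 3 libraries of each group. Circles, squares and diamonds are replicates 1, 2 and 3, and horizontal marks with bars are means with SD. *Irf8* and *Irf5* separate all 3 groups, with injured *VEGFR3fl/fl* highest.

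*Irf8* (NCBI Gene ID 15900, GRCm38 chromosome 8, 120736358 to 120756694, plus strand) encodes a factor needed for monocytes, macrophages and type 1 conventional dendritic cells. It had 6.20, 6.61 and 7.43 CPM in Sham, 78.0, 69.8 and 69.0 CPM in injured *VEGFR3fl/fl* and 46.8, 40.8 and 40.8 CPM in injured *VEGFR3iLECko* libraries. Every injured library was above every Sham library, and every injured *VEGFR3fl/fl* library was above every injured *VEGFR3iLECko* library. Group means were 6.75 ± 0.627 CPM for Sham, 72.3 ± 4.97 CPM for injured *VEGFR3fl/fl* and 42.8 ± 3.47 CPM for injured *VEGFR3iLECko* irises (SD, n = 3 each). The rise after injury was 10.7-fold, a log2 fold change of 3.42 (SE 0.10, edgeR adjusted p = 4.09e-08). The *VEGFR3iLECko* mean was 59.2% of the injured *VEGFR3fl/fl* mean, a log2 fold change of -0.76 (SE 0.090, edgeR adjusted p = 0.0214), and remained 6.34-fold above Sham. In bulk RNA, fewer cells that express a gene and less RNA of it in each cell cannot be told apart.

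*Irf5* (NCBI Gene ID 27056, chromosome 6, 29526625 to 29541871, plus strand) encodes a factor that acts below Toll-like receptors and MyD88 in macrophages and drives inflammatory cytokine genes. Its level was 4.71, 4.46 and 4.17 CPM in Sham, 46.0, 42.3 and 42.7 CPM in injured *VEGFR3fl/fl* and 29.2, 28.3 and 26.3 CPM in injured *VEGFR3iLECko* libraries. The 3 groups again did not overlap, in the same order as for *Irf8*. After injury the log2 fold change was 3.29 (SE 0.089, edgeR adjusted p = 2.35e-08). In *VEGFR3iLECko* it was lower than in injured *VEGFR3fl/fl* by a log2 fold change of -0.64 (SE 0.078, edgeR adjusted p = 0.0214), which left 64.0% of the injured *VEGFR3fl/fl* mean. Group means were 4.45 ± 0.271, 43.6 ± 2.05 and 27.9 ± 1.48 CPM (SD, n = 3 each). Over the 9 libraries, the log2 levels of *Irf5* and *Irf8* had a Pearson r of 0.997, a value set mostly by the differences between the 3 groups.

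Both calls between the injured groups were lost when Sham was left out of the fit, where both genes had an edgeR adjusted p of 0.0943, over a range of 4.27e-09 to 0.170 for *Irf8* and 1.95e-07 to 0.170 for *Irf5* over the alternatives tried. Without *VEGFR3iLECko* replicate 2 the adjusted p was 0.107 for *Irf8* and 0.103 for *Irf5*, and without *VEGFR3iLECko* replicate 1 it was 0.0585 for *Irf5*. With a covariate for Y-linked RNA, added after the data were seen, the log2 fold changes were -0.66 and -0.62 and both adjusted p were 0.170. Injured *VEGFR3fl/fl* replicate 3, which had as little Y-linked RNA as the *VEGFR3iLECko* libraries, held 69.0 CPM of *Irf8* and 42.7 CPM of *Irf5*, above every *VEGFR3iLECko* library. That is a single library, and the parts of sex and of the genotype label in these differences cannot be told apart.

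*Irf4* (NCBI Gene ID 16364, chromosome 13, 30749226 to 30766976, plus strand), a factor of B cells, plasma cells and part of the dendritic and T cells, was the least abundant IRF gene studied. It had 34, 35 and 31 counts in Sham, 35, 23 and 42 in injured *VEGFR3fl/fl* and 14, 25 and 24 in injured *VEGFR3iLECko* libraries. The level was 1.88, 1.98 and 1.75 CPM in Sham, 2.12, 1.35 and 2.41 CPM in injured *VEGFR3fl/fl* and 0.818, 1.42 and 1.38 CPM in injured *VEGFR3iLECko* libraries. Injured *VEGFR3fl/fl* libraries overlapped both other groups, while every *VEGFR3iLECko* library was below every Sham library. The log2 fold change was 0.069 after injury (95% interval -0.62 to 0.76, edgeR adjusted p = 0.857) and -0.70 between the injured groups (95% interval -1.40 to 0.0073, edgeR adjusted p = 0.207). At such counts neither interval excludes a change of 1.5-fold. *Irf4* is also expressed in pigment cells, whose marker list fell after injury as described below.

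*Irf7* (NCBI Gene ID 54123, chromosome 7, 141262706 to 141266481, minus strand) encodes the factor that amplifies type I interferon production and is itself induced by interferon. It had 18.1, 29.7 and 17.5 CPM in Sham, 53.2, 42.3 and 79.0 CPM in injured *VEGFR3fl/fl* and 30.4, 30.6 and 29.2 CPM in injured *VEGFR3iLECko* libraries. Sham replicate 2 and injured *VEGFR3fl/fl* replicate 3 stood above the others of their group, and the *VEGFR3iLECko* libraries lay close together. After injury the log2 fold change was 1.42 (SE 0.25, edgeR adjusted p = 0.00107), and no injured *VEGFR3fl/fl* library overlapped Sham. The *VEGFR3iLECko* mean, 30.1 ± 0.757 CPM (SD, n = 3), was 51.8% of the injured *VEGFR3fl/fl* mean of 58.2 ± 18.8 CPM (SD, n = 3). That was the largest difference in size between the injured groups among the 8 genes, with a log2 fold change of -0.95 (95% interval -1.51 to -0.39), but it did not pass the edgeR test (adjusted p = 0.0777). DESeq2 called it, with an adjusted p of 0.00645, in a range of 0.00645 to 0.214 over the alternatives. Against Sham, the *VEGFR3iLECko* log2 fold change was 0.47 (edgeR adjusted p = 0.145) and the groups overlapped. It was 0.76 (edgeR adjusted p = 0.0278) without Sham replicate 2 and -0.16 with the Y-linked covariate.

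*Irf3* (NCBI Gene ID 54131, chromosome 7, 44997648 to 45002848, plus strand) is expressed in most cells and is activated by phosphorylation below STING, MAVS and TRIF. It had 63.3, 69.3 and 62.4 CPM in Sham, 87.4, 72.4 and 67.9 CPM in injured *VEGFR3fl/fl* and 70.6, 59.2 and 57.9 CPM in injured *VEGFR3iLECko* libraries. All 3 groups overlapped with one another. The log2 fold change was 0.22 after injury (95% interval -0.031 to 0.48, edgeR adjusted p = 0.115) and -0.28 between the injured groups (95% interval -0.53 to -0.024, edgeR adjusted p = 0.176). Both intervals lie within a 1.5-fold change in either direction.

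*Irf1* (NCBI Gene ID 16362, chromosome 11, 53770014 to 53778374, plus strand) is induced by interferon gamma and activates antigen presentation genes. It had 20.4, 20.5 and 21.4 CPM in Sham, 44.1, 48.5 and 50.0 CPM in injured *VEGFR3fl/fl* and 36.8, 43.3 and 39.3 CPM in injured *VEGFR3iLECko* libraries. Every injured library was above Sham and every *VEGFR3iLECko* library was below the injured *VEGFR3fl/fl* libraries. The log2 fold change was 1.20 after injury (SE 0.083, edgeR adjusted p = 3.36e-06) and 0.94 in *VEGFR3iLECko* against Sham (SE 0.083, edgeR adjusted p = 1.98e-05). Between the injured groups it was -0.26 (95% interval -0.44 to -0.072, edgeR adjusted p = 0.113), which does not reach 1.5-fold at either end.

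*Irf2* (NCBI Gene ID 16363, chromosome 8, 46739732 to 46847458, plus strand) competes with IRF1 for its sites. It had 27.4, 24.5 and 27.2 CPM in Sham, 35.8, 37.9 and 46.0 CPM in injured *VEGFR3fl/fl* and 42.7, 37.1 and 37.1 CPM in injured *VEGFR3iLECko* libraries. Both injured groups were above Sham in every library and overlapped each other. After injury the log2 fold change was 0.60 (SE 0.11, edgeR adjusted p = 0.00121), just over the 1.5-fold threshold. It fell under 1.5-fold, with an adjusted p that still passed, without injured *VEGFR3fl/fl* replicate 3 (0.49), without Sham replicate 2 (0.55), with the Y-linked covariate (0.52) and with scaling by upper quartile (0.58) or library size only (0.43). Between the injured groups *Irf2* differed by -0.034 (95% interval -0.28 to 0.21, edgeR adjusted p = 0.872), the smallest difference among the 8 genes. In *VEGFR3iLECko* against Sham the log2 fold change was 0.57 (edgeR adjusted p = 0.00199), just under 1.5-fold.

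*Irf9* (NCBI Gene ID 16391, chromosome 14, 55603571 to 55610030, plus strand), the DNA-binding subunit of ISGF3, had 57.8, 65.9 and 57.3 CPM in Sham, 67.3, 55.2 and 74.7 CPM in injured *VEGFR3fl/fl* and 53.4, 57.0 and 55.0 CPM in injured *VEGFR3iLECko* libraries. The injured *VEGFR3fl/fl* libraries spread widely and overlapped both other groups, and the *VEGFR3iLECko* libraries lay just below those of Sham. The log2 fold change was 0.12 after injury (95% interval -0.12 to 0.37, edgeR adjusted p = 0.352) and -0.25 between the injured groups (95% interval -0.50 to -0.0067, edgeR adjusted p = 0.196).

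**Figure D2:**
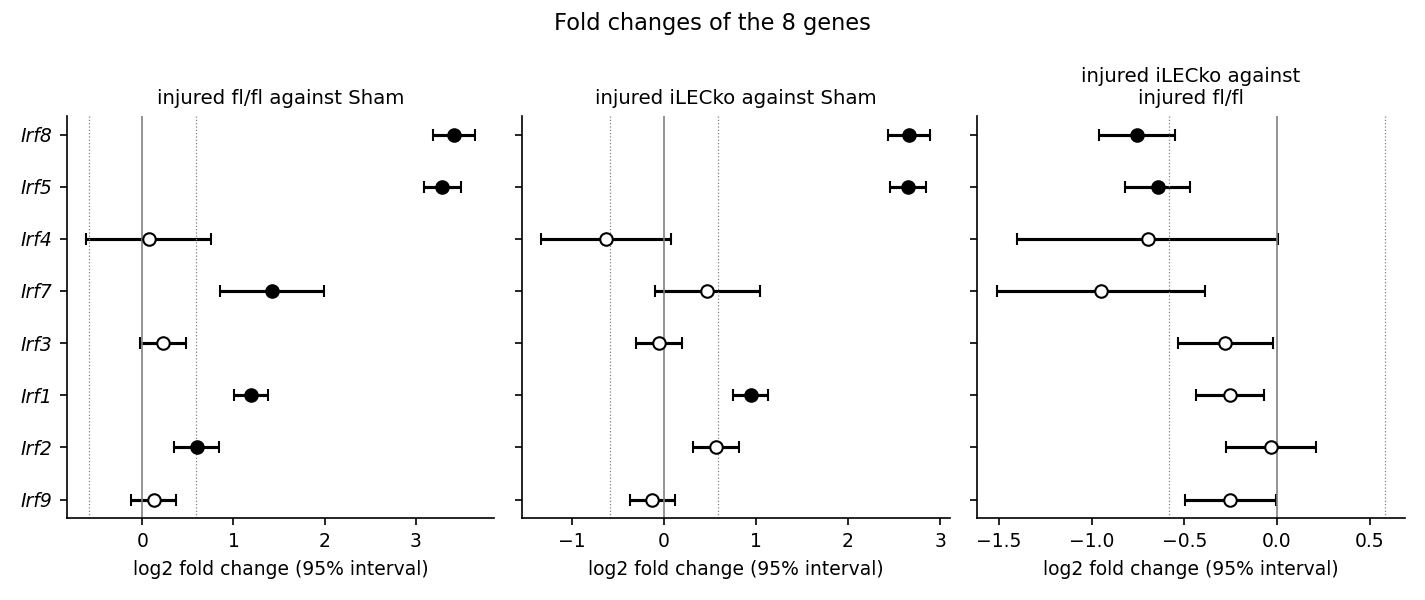
Log2 fold changes of the 8 genes from edgeR with 95% intervals, in 3 comparisons whose horizontal axes differ in scale. Filled points are DEGs and dotted lines mark 1.5-fold. *Irf8* and *Irf5* lie at 3.42 and 3.29 after injury and at -0.76 and -0.64 between the injured groups.

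Levels of the IRF genes were compared with one another per length, as approximate TPM from the longest transcript of each gene. In Sham, *Irf3* was the most abundant of the 8 genes with 91.5 ± 2.68 TPM, followed by *Irf9* with 44.5 ± 2.01 TPM (SD, n = 3 each). *Irf5* and *Irf8* were at 5.68 ± 0.481 and 5.57 ± 0.524 TPM, within each other's spread, and *Irf4* was lowest with 1.12 ± 0.0605 TPM. In injured *VEGFR3fl/fl* irises *Irf3* had 86.5 ± 4.81 TPM, *Irf1* 52.0 ± 7.18, *Irf8* 48.4 ± 0.579, *Irf5* 45.3 ± 1.54, *Irf7* 42.0 ± 15.3, *Irf9* 39.6 ± 6.70, *Irf2* 23.6 ± 4.61 and *Irf4* 0.957 ± 0.277 TPM (SD, n = 3 each). From *Irf1* to *Irf9* in that order, neighbouring genes did not differ beyond their spread, apart from *Irf8* and *Irf5*, whose 3 libraries did not overlap. *Irf3* was highest and *Irf4* lowest in each group with the longest, the median and the longest protein-coding transcript, while the order between them changed with the length used.

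The summed TPM of the 8 genes was 208 to 220 in Sham, 318 to 371 in injured *VEGFR3fl/fl* and 267 to 287 in injured *VEGFR3iLECko* libraries, without overlap. *Irf3* made up 42.5% to 43.1% of this sum in Sham, 22.1% to 28.7% in injured *VEGFR3fl/fl* and 27.1% to 30.9% in injured *VEGFR3iLECko* libraries. *Irf8* made up 2.37% to 2.97% in Sham, 13.1% to 15.0% in injured *VEGFR3fl/fl* and 10.9% to 12.0% in injured *VEGFR3iLECko* libraries. The share of *Irf5* went from 2.48% to 2.90% in Sham to 12.6% to 14.0% in injured *VEGFR3fl/fl* and 11.4% to 11.7% in injured *VEGFR3iLECko* libraries. For *Irf9* it was 20.5% to 21.2%, 10.6% to 12.7% and 12.3% to 13.8% in the same order. After injury *Irf5* and *Irf8* thus took a larger and *Irf3* and *Irf9* a smaller share of the sum.

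**Figure D3:**
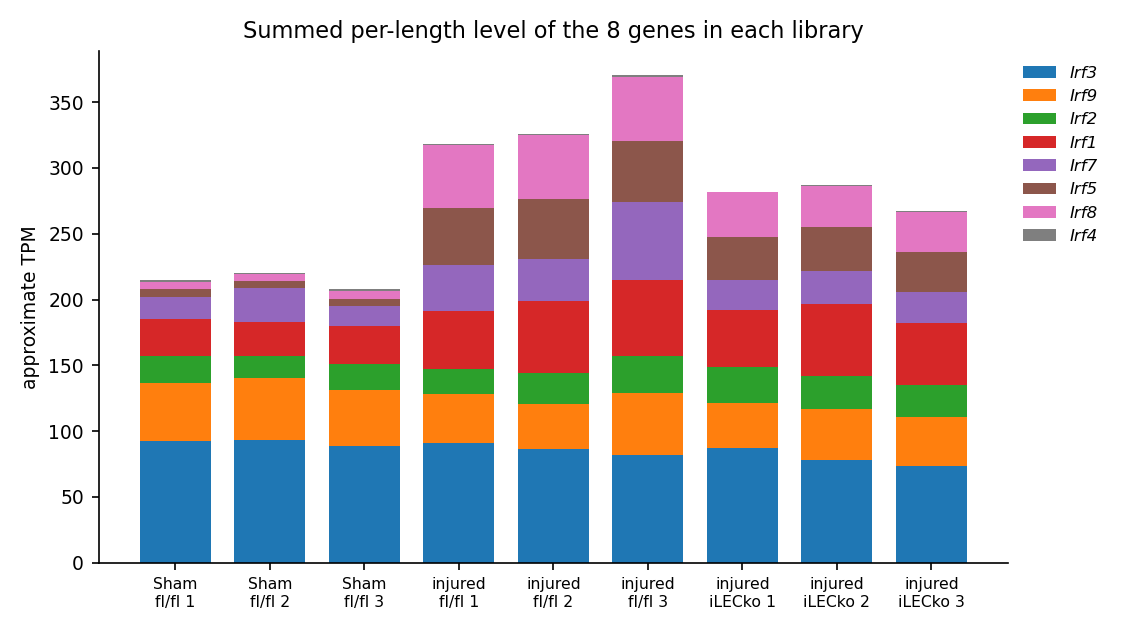
Approximate TPM (longest transcript) of the 8 genes stacked in each library, from 0. The sum is 208 to 220 in Sham, 318 to 371 in injured *VEGFR3fl/fl* and 267 to 287 in injured *VEGFR3iLECko* libraries, and the segments of *Irf5* and *Irf8* are narrow in Sham only.

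Markers of other cells moved with these genes. The 5 leukocyte genes *Ptprc*, *Coro1a*, *Laptm5*, *Cd53* and *Cd52* were all upregulated DEGs after injury, and their summed level was 65.3 to 71.5 CPM in Sham, 1216 to 1380 CPM in injured *VEGFR3fl/fl* and 925 to 986 CPM in injured *VEGFR3iLECko* libraries. Of 15 macrophage genes, 14 rose after injury, and their sum was 590 to 606 CPM in Sham, 13090 to 21570 CPM in injured *VEGFR3fl/fl* and 8484 to 10470 CPM in injured *VEGFR3iLECko* libraries. In *VEGFR3iLECko* against injured *VEGFR3fl/fl*, 7 of them were downregulated DEGs, among them the complement genes *C1qa* (-0.79), *C1qb* (-0.95) and *C1qc* (-0.76), whereas *Cd14* (0.86), a receptor for bacterial lipopolysaccharide, was an upregulated one. With the Y-linked covariate 1 of these 8 calls was left, *Fcgr1* (-1.14, edgeR adjusted p = 0.0358). The macrophage sum rests mostly on lysozyme, *Lyz2*, with a mean of 13060 CPM in injured *VEGFR3fl/fl* irises. T cell genes summed to 4.79 to 5.21 CPM in Sham, 40.5 to 58.7 CPM in injured *VEGFR3fl/fl* and 24.6 to 43.6 CPM in injured *VEGFR3iLECko* libraries, and B cell genes to 1.58 to 1.61, 9.36 to 11.1 and 5.24 to 5.90 CPM in the same order. All 8 T cell and all 4 tested B cell genes rose after injury. Of 8 genes of type 1 dendritic cells 6 rose, among them *Naaa* (1.33), *Wdfy4* (4.03) and the dendritic cell receptor gene *Clec9a*, which had at most 59 counts in a library, and *Cadm1* (-1.69) fell. All 6 genes of type 2 dendritic cells rose, among them *Itgax* (6.66) and *Sirpa* (1.61). Between the injured groups edgeR called 0 genes of either dendritic cell list, with 1 higher and 1 lower of the type 1 list and 0 higher and 2 lower of the type 2 list at an unadjusted p under 0.05. Neutrophil genes summed to 4.43 to 5.91 CPM in Sham, 181 to 557 CPM in injured *VEGFR3fl/fl* and 414 to 1361 CPM in injured *VEGFR3iLECko* libraries, with 6 of 7 upregulated after injury and all 7 higher in *VEGFR3iLECko* than in injured *VEGFR3fl/fl* without passing the test. The 10 pigment cell genes all fell after injury, from a sum of 31180 to 33320 CPM in Sham to 3870 to 6617 CPM in injured *VEGFR3fl/fl* and 5881 to 8010 CPM in injured *VEGFR3iLECko* libraries. The part of these shifts in cell content in the changes of the IRF genes was not tested.

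Each IRF gene was also set against marker RNA of the same library. After injury the leukocyte sum rose by more than any IRF gene, so every such ratio was lower in injured *VEGFR3fl/fl* than in Sham irises and repeats the order of the CPM changes. It is given only as a level. In parts per 1000 of the summed leukocyte CPM, *Irf8* stood at 95.1 to 104 in Sham, 50.0 to 64.2 in injured *VEGFR3fl/fl* and 44.1 to 47.5 in injured *VEGFR3iLECko* libraries, and *Irf5* at 58.3 to 72.2, 30.9 to 37.8 and 28.4 to 30.5.

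Between the injured groups the outcome depended on the marker used. Per leukocyte list, the log2 difference in *VEGFR3iLECko* was -0.33 for *Irf8*, -0.21 for *Irf5*, -0.47 for *Irf7* and 0.40 for *Irf2*, each without overlap (two-sided exact permutation test, p = 0.1, the smallest that 3 against 3 libraries allow). Per macrophage list it was 0.011 for *Irf8* (two-sided exact permutation test, p = 1.0), 0.12 for *Irf5* (p = 0.6, permutation) and -0.13 for *Irf7* (p = 0.8, permutation), and the groups overlapped for all 3. Per *Ptprc*, the gene for the leukocyte antigen CD45, it was -0.71 for *Irf8* (p = 0.2, permutation), -0.60 for *Irf5* (p = 0.2, permutation) and -0.86 for *Irf7* (p = 0.1, permutation), close to their differences in CPM. *Irf2* differed by 0.74 per macrophage list and by 0.015 per *Ptprc*. The macrophage sum spread from 13090 to 21570 CPM within injured *VEGFR3fl/fl*, and which marker best stands for the cells that express these genes was not tested.

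**Figure D4:**
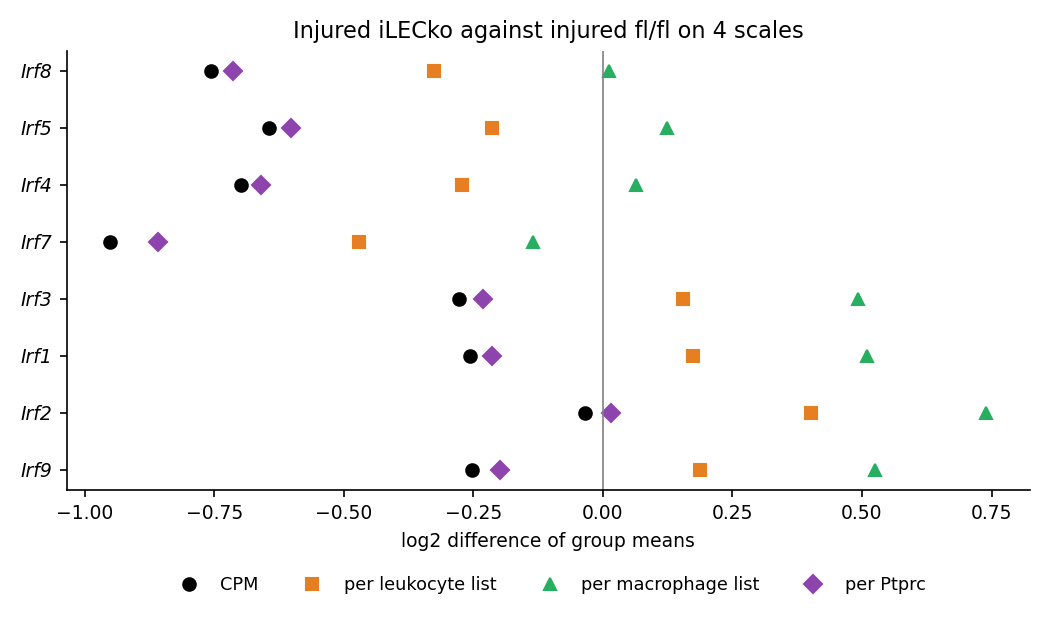
Differences between injured *VEGFR3iLECko* and injured *VEGFR3fl/fl* means on the log2 scale for each IRF gene, as CPM (circles, edgeR log2 fold change), per summed CPM of 5 leukocyte genes (squares), per summed CPM of 15 macrophage genes (triangles) and per *Ptprc* (diamonds). *Irf8* lies at -0.76, -0.33, 0.011 and -0.71 on the 4 scales.

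The pathway around the IRF proteins was described by lists of its parts, starting with the signals. Counts in the lists below stand beside 22.1% upregulated and 17.5% downregulated DEGs among all genes tested after injury. Between the injured groups, edgeR called 0.466% of all genes lower and 0.573% higher. At an unadjusted p under 0.05, 12.5% were lower and 12.0% higher there, and DESeq2 called 4.17%. Of the interferon genes, 5 were listed (*Ifna6*, *Ifna11*, *Ifnk*, *Ifnz* and *Ifng*), none passed the filter on low counts, and together they reached at most 0.409 CPM in a library. *Ifnz* had 6 or fewer counts in every library and the other 4 had at most 1, too few to compare groups at this depth. Of 6 receptor genes, 4 were upregulated DEGs after injury, those for the receptors of type I interferon, *Ifnar1* (0.65) and *Ifnar2* (0.63), and of interferon gamma, *Ifngr1* (1.71) and *Ifngr2* (1.21), as log2 fold changes. For *VEGFR3iLECko* against injured *VEGFR3fl/fl*, edgeR called 0 of the 6, with 4 lower and 0 higher at an unadjusted p under 0.05, and DESeq2 called 0.

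Among 9 genes of JAK-STAT signaling and its inhibitors, 4 rose after injury. These were the kinases *Jak1* (0.70) and *Tyk2* (0.75) and the inhibitors *Socs3* (3.01) and *Socs1* (2.05). edgeR called 0 of the 9 between the injured groups, with 2 lower and 0 higher at an unadjusted p under 0.05, and DESeq2 called 1.

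Of 11 nucleic acid sensor genes, 7 rose after injury, with a median log2 fold change of 2.11 over the list. The endosomal RNA receptors *Tlr7* (2.11) and *Tlr8* (4.12) and the cytosolic sensors *Zbp1* (3.11) and *Ifih1* (0.79), which encodes MDA5, had the largest CPM among those that rose. *Tlr7* was the only one of the 11 that edgeR called between the injured groups, with a mean of 44.4 CPM in injured *VEGFR3fl/fl* and 27.3 CPM in injured *VEGFR3iLECko* irises, a log2 fold change of -0.70 (SE 0.10, edgeR adjusted p = 0.0263). Of 17 adapters and kinases upstream of IRF3, IRF5 and IRF7, 7 rose after injury, among them *Unc93b1* (2.73), which brings Toll-like receptors to endosomes, *Sting1* (1.96), *Myd88* (1.48) and *Trim25* (0.61). *Unc93b1* was the only one of these called between the injured groups, at 272 CPM in injured *VEGFR3fl/fl* and 161 CPM in injured *VEGFR3iLECko* irises, a log2 fold change of -0.76 (SE 0.10, edgeR adjusted p = 0.0235). With the Y-linked covariate *Tlr7* was at -0.61 (edgeR adjusted p = 0.26) and *Unc93b1* at -0.66 (edgeR adjusted p = 0.217). Over all alternatives the genes called ranged from 0 to 2 of the sensors and from 0 to 1 of the adapters.

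Of 10 genes for DNA-binding partners of IRF4 and IRF8, 5 rose after injury. *Spi1*, which encodes PU.1, rose by 4.07, *Batf* by 3.10, *Spib* by 3.21 and *Junb* by 1.66 on the log2 scale. edgeR called 0 of the 10 between the injured groups, with 4 lower and 0 higher at an unadjusted p under 0.05, and DESeq2 called 0. The genes of all 3 IRF2-binding proteins were lower after injury, and *Irf2bpl* (-0.59) was the only one called, as a downregulated DEG. *Irf2bp1* (-0.46, edgeR adjusted p = 0.000535) stayed under 1.5-fold, and *Irf2bp2* was at -0.18 (edgeR adjusted p = 0.254).

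Genes induced through ISGF3 moved in both directions. Of 18 tested, 12 rose after injury, among them *Oasl2* (1.42) and *Parp9* (0.67), and 2 fell, *Ifit3* (-0.72) and *Ifit3b* (-0.95), which are close copies whose reads may be split between them. Their median log2 fold change was 1.05. All 18 were lower in *VEGFR3iLECko* than in injured *VEGFR3fl/fl*, with a median of -0.54 against -0.0099 over all genes tested. None was a DEG in edgeR, 13 were lower and 0 higher at an unadjusted p under 0.05, and DESeq2 called 7, beside the shares of all genes given above (12.5% lower, 12.0% higher and 4.17%). *Bst2*, which tethers virus particles to the cell, had a log2 fold change of -0.83 there (edgeR adjusted p = 0.0991). Against Sham, 7 of the 18 were upregulated and 2 downregulated DEGs in *VEGFR3iLECko* irises.

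Of 17 genes induced by interferon gamma through IRF1, 12 rose after injury, among them the GTPase genes *Irgm1* (0.62), *Gbp2* (0.68) and *Iigp1* (1.89) and the immunoproteasome gene *Psmb10* (1.12), and 1 fell, *Gbp6* (-0.80). In *VEGFR3iLECko*, 16 of the 17 were lower than in injured *VEGFR3fl/fl*, with a median log2 fold change of -0.51. edgeR called 0 of them, 11 were lower and 0 higher at an unadjusted p under 0.05, and DESeq2 called 4. Against Sham, 8 were upregulated and 1 was downregulated in *VEGFR3iLECko* irises, with *Psmb8* at 1.68, *Iigp1* at 1.63 and *Tap1* at 0.77 on the log2 scale.

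**Figure D5:**
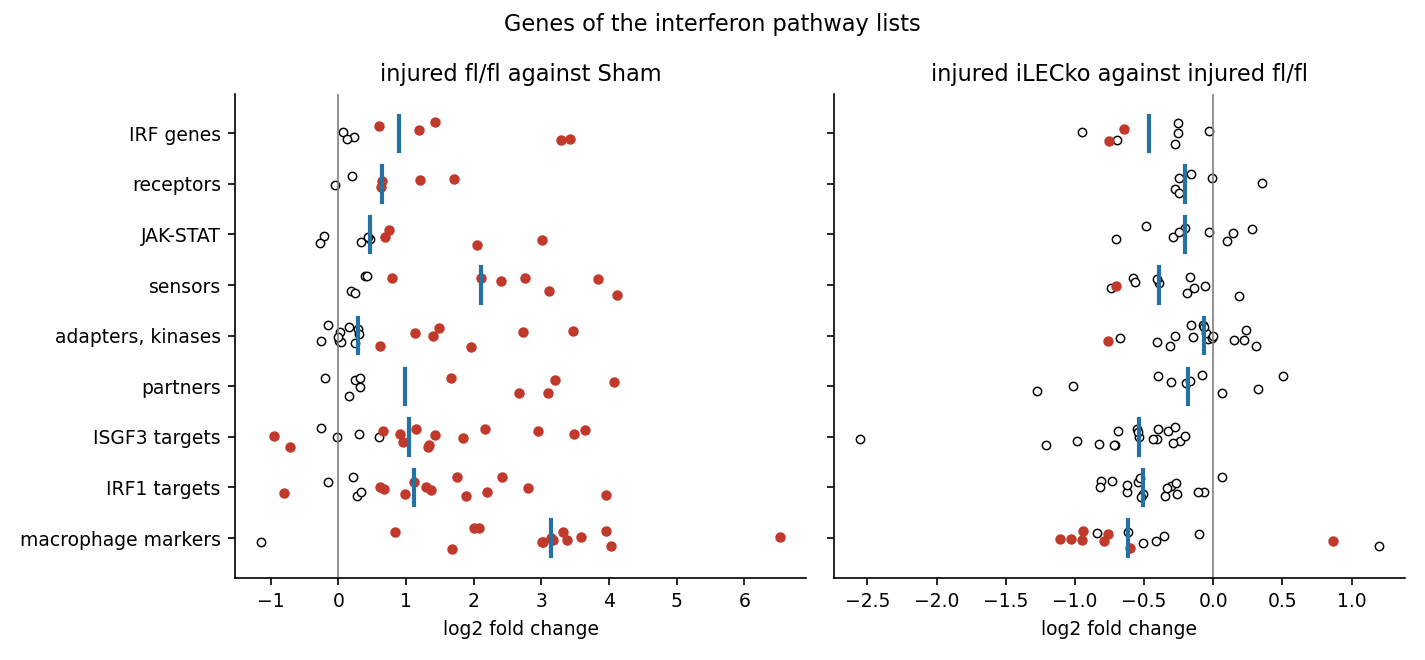
Log2 fold changes of single genes (points) in 8 lists around the IRF proteins and in the macrophage markers, after injury (left) and between the injured groups (right). Red points are DEGs, blue bars are list medians and the vertical scatter is random. All 18 genes induced through ISGF3 lie below 0 in the right panel, with none of them a DEG.

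The genes whose log2 CPM was most like that of each IRF gene were sought among 12149 genes with a mean of at least 5 CPM, over the same 9 libraries. These correlations describe libraries that share group differences and cell content. Nearest to *Irf8* were *C1qb* (Pearson r 0.999), *Cd300a* and *Slc7a7*, and nearest to *Irf5* were *Fblim1*, *Ubash3b* and *Fermt3* (0.998 for each). Nearest to *Irf1* were *Cd180* (0.998), *Ifi207* and *Ifi209*, and nearest to *Irf2* were *Cdk6* (0.985), *Nol4l* and *Actr3b*. For *Irf7* they were *Rtp4* (0.988), *Slfn8* and *Oas1g*. After subtraction of group means, which leaves only the spread between replicates, *Rtp4* and *N6amt1* were among the 3 nearest genes of both *Irf7* (0.961 and 0.983) and *Irf9* (0.950 and 0.960), and *Oasl2* was among those of *Irf7* (0.979). Values of this size were not particular to these genes. The nearest gene of the other IRF genes reached from 0.949 (*Adam1a* for *Irf5*) to 0.9905 (*Hcfc1r1* for *Irf3*), with *Zfp707* at 0.984 for *Irf8*. *Irf7* and *Irf9* were both highest in injured *VEGFR3fl/fl* replicate 3 and, within Sham, in replicate 2.

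Reads could not be assigned to one gene everywhere. In the GENCODE annotation of GRCm38, exons of *Irf5* share 411 bases with *Tnpo3*, those of *Irf1* 135 bases with *Gm17334*, those of *Irf3* 88 bases with *Bcl2l12* and those of *Irf7* 45 bases with *Phrf1*, all on the opposite strand. Exons of *Irf9* share 123 bases with *Rnf31* on the same strand. Whether the counting used strand is not given in the sources used here, so reads from these stretches cannot be told apart.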

How the data were processed

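Bulk RNA-Seq of 9 iris libraries was analysed, with groups taken from titles and treatments. Single-end reads were filtered and mapped by the authors, whose processing notes name mm10, HISAT2 2.0.4 and Bowtie2 2.2.5, and they deposited estimated counts per gene without normalization. The counting program and annotation are not given in the sources used here. A combined table with group averages was not used. Members and gene lists were chosen with earlier results of these data known.

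Estimated counts were rounded to whole numbers. edgeR 4.0.16 in R 4.3.3 was used with TMM factors of 0.90 to 1.09. The filterByExpr function kept 15010 of 18349 genes, and 1 model over all 9 libraries, with group as its only term, was tested by quasi-likelihood with Benjamini-Hochberg adjustment over all genes. A DEG differed by over 1.5-fold at an adjusted p under 0.05. Intervals used the moderated degrees of freedom. Approximate TPM used transcript lengths of GENCODE M21, known for 97.7% of genes. Named list genes were the up to 4 called genes of a list with the largest mean CPM or, with none called, the 2 with the largest mean. Alternatives covered normalization, filter, DESeq2 1.42.0, thresholds, a replicate block and each library left out. Ratios to marker lists were tested by exact permutation over libraries.

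Total counts per library were 16617187 to 18306359, and replicates differed by more than counting noise (chi-square per degree of freedom 5.13 to 76.2). On simulated data for the injury comparison (15010 genes, 200 changed 3-fold), 82.5% were recovered, 0 in the wrong direction, with 6 false calls. Some results are not reported here.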

Additional observations from a re-analysis of the deposited data

How the results depend on the processing

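Over 24 fold changes of the 8 genes and 18 alternatives each, 403 of 432 values kept direction and call. The count of 2 genes called between the injured groups became 1 (*Irf8*) with scaling by library size only and 0 in a fit of only the 6 libraries compared, 0 with a fold change over 2 and 0 with a Y-linked covariate added after the data were seen. Leaving out single libraries gave 0 to 2, and DESeq2 called *Irf7* (DESeq2 adjusted p = 0.00645) in addition to *Irf8* and *Irf5*. Over all genes, 86 upregulated and 70 downregulated DEGs in that comparison became 344 and 282 with DESeq2, 71 and 41 with library size only, 31 and 10 over 2-fold, 0 and 2 with the Y-linked covariate, 11 and 13 with the replicate block, and 0 and 0 in the 6 libraries alone and without *VEGFR3iLECko* replicate 2. Small changes reversed. With library size only, which moves the median of all genes by -0.16 after injury, *Irf4* (-0.11) and *Irf9* (-0.049) reversed after injury and *Irf2* (0.025) between the injured groups. With the Y-linked covariate, *Irf4* after injury was -0.058, and *Irf3* and *Irf7* in *VEGFR3iLECko* against Sham were 0.15 and -0.16. Leaving out single libraries, *Irf4* after injury ranged from -0.11 to 0.28, *Irf2* between the injured groups from -0.10 to 0.081 and *Irf3* in *VEGFR3iLECko* against Sham from -0.15 to 0.00076. Ratios between the injured groups were also compared with those per leukocyte list. Per macrophage list, the ratios of *Irf8* (0.011), *Irf5* (0.12) and *Irf4* (0.065) reversed, and those of the other genes kept direction. Per *Ptprc* alone, the ratios of *Irf1* (-0.21), *Irf3* (-0.23) and *Irf9* (-0.20) reversed. From the leukocyte list to *Ptprc*, those of *Irf8* (-0.33 to -0.71), *Irf5* (-0.21 to -0.60), *Irf7* (-0.47 to -0.86), *Irf4* (-0.27 to -0.66) and *Irf2* (0.40 to 0.015) moved by over 1.5 times. The causes were not tested. Deviations from group means correlated by -0.39 to 0.13 between same-numbered libraries and by -0.24 to 0.32 between others. With 3 libraries per group this cannot exclude a pairing by replicate number. With a replicate block the genes called stayed at 5 after injury, 2 between the injured groups and 3 in *VEGFR3iLECko* against Sham.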
